A study of Homo sapiens with 16 samples.

Results

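N4-acetylcytidine (ac4C) is a modified base of RNA, and NAT10 is the acetyltransferase that writes it on ribosomal and transfer RNA and, as has been reported, on messenger RNA. In acRIP, RNA fragments are pulled down with an antibody to ac4C and sequenced beside the input, and windows of exons with more reads in the pull-down than in the input are called as peaks. A peak is therefore a stretch of transcript and not a single base.

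The regions described here are acRIP peaks of UM-UC-3, an established human bladder cancer cell line, that lie in 1 uninterrupted exon block in cells given a control siRNA and that share at least 1 base, on the same strand, with an exon block of a peak from cells given an siRNA against NAT10. They numbered 6281 of the 8662 single-block peaks (72.5%) and of the 10253 peaks of all kinds in the control list of the replicate round, and they lay in 5366 genes. The remaining 2381 single-block control peaks had no overlap of this kind. The NAT10-si list of the same round held 16753 peaks. Members were chosen by the deposited peak positions of both arms, so their presence in both arms is the rule and not a finding.

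Both arms were UM-UC-3 cells 48 h after transfection with 75 nM siRNA, and each arm rested on 1 siRNA sequence. The study comprised 16 samples of UM-UC-3 and T24 cells, profiled by RNA-seq and by acRIP with its input. Each peak list of the replicate round came from 1 pull-down and 1 input library, so no peak value has a replicate. RNA-seq of the same line gave 2 libraries per arm, numbered 2 and 3. Separate cultures are not named in the labels; the p-values below therefore reflect the spread from library to library, which could be technical.

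The siRNAs are shown because they define the arms; the capitals mark the 3′ TT overhang.
NAT10 siRNA: ccaucucucgcaucuauuuTT
control siRNA: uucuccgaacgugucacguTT

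NAT10 itself had no shared single-block peak. Its expression was 19 and 17.6 FPKM (fragments per kilobase of transcript, scaled to sequencing depth) in the control libraries and 4.04 and 3.84 FPKM in the NAT10-si libraries. The arms did not overlap, and the difference was -1.97 on the log2(FPKM + 1) scale (standard error 0.0611, adjusted p = 0.00011 by limma). Between 16358901 and 33892714 reads per RNA-seq library were recovered from the FPKM steps. Of 7 basal urothelial markers only CD44 averaged at least 1 FPKM, and of 13 luminal markers 6 did, with UPK3A listed at 0 throughout. The summed level of 6 plasma cell markers was 0.879 and 0.112 FPKM in control and 59.4 and 13.6 FPKM in NAT10-si. None of those 6 genes had a shared peak. Summed over 8 immune markers it was 1.17 and 1.04 FPKM in control and 3.97 and 4.3 FPKM in NAT10-si, with MS4A1 and PTPRC listed at 0, and over 5 endothelial markers 17.6 and 18 FPKM and 26.3 and 27.9 FPKM. Only 1 immune, 1 endothelial and 3 plasma cell markers averaged at least 1 FPKM. Over 7 fibroblast markers, 2 of them at that level, the sums were 10.9 and 10.2 FPKM in control and 12.4 and 13.2 FPKM in NAT10-si. The basal markers summed to 106 FPKM in both control libraries and to 105 and 104 FPKM in NAT10-si. The luminal markers summed to 118 FPKM in both control libraries and to 91.2 and 86.5 FPKM in NAT10-si. The part of these signals in the results was not tested.

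The genome letters of whole peaks were not used here, but RefSeq miRNA and gene start sequences on GRCh38.p14 fall within some of them. Of 8 miRNA hairpins that touched the control window of a shared peak on its strand, 5 lay wholly inside that window. Their mature sequences are shown because they are annotated RNA segments inside the enriched windows; the capitals mark the seed, bases 2 to 8.
hsa-miR-4647: gAAGAUGGugcugugcugaggaa
hsa-miR-3198: gUGGAGUCcuggggaauggaga
hsa-miR-4709-5p: aCAACAGUgacuugcucuccaa
hsa-miR-4709-3p: uUGAAGAGgaggugcucuguagc
hsa-miR-10393-5p: aGAAUUCUcuuauccaacaucaaca
hsa-miR-10393-3p: uGGUCAGAuuugaacucuucaa
hsa-miR-6805-5p: uAGGGGGCggcuuguggagugu
hsa-miR-6805-3p: uUGCUCUGcucccccgcccccag

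All 8 seeds differ, so these windows share no miRNA seed. MIR4647 lies in the peak of SLC35B2, a solute carrier gene, on the minus strand at chr6:44254096-44254395. That window was 300 bases wide with a fold of 1530 in the control list, the highest of any member, and its NAT10-si partner was 509 bases wide with a fold of 70.2 in its own list. MIR4709 lies in the peak of NPC2, which encodes a lysosomal cholesterol carrier, at chr14:74479927-74480375 on the minus strand, 449 bases wide in control and 509 bases in NAT10-si. MIR10393 lies in the peak of B2M, the light chain of MHC class I, at chr15:44717797-44718157, which was 361 bases wide in control and 990 bases in NAT10-si. MIR3198-2 lies in the control peak of CBX5, a heterochromatin protein gene, at chr12:54230970-54231539. That window was 570 bases wide in control and 270 bases in NAT10-si, so it moved the other way. The NAT10-si peak, at chr12:54231120-54231389, does not reach the mature sequence at chr12:54231407-54231428. MIR6805 lies in the peak of RPL28, at chr19:55387926-55388464, which was 539 bases wide in control and 479 bases in NAT10-si. These are values of the host transcripts, since the libraries do not measure mature miRNA.

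In a pair of long non-coding RNA genes taken as examples, a shared peak reaches into a RefSeq start window (250 bases before to 50 after an annotated start, of which both genes have more than 1). Those stretches are shown on the gene's strand, with the trinucleotide CCG, the context of acetylated cytidines in 18S ribosomal RNA, in capitals.
YWHAH-AS1 chr22:31945313-31945488: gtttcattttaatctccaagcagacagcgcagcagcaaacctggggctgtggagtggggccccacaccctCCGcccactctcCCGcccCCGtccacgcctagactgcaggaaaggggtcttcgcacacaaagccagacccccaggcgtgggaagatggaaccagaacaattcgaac
LINC00173 chr12:116533452-116533484: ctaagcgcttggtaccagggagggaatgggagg

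The YWHAH-AS1 stretch of 176 bases holds CCG 3 times on this strand and no CGG, which is CCG on the other strand. Its 5′ edge, which is also that of the peak, lies outside the RefSeq gene span (distance from the gene start -122 bases). All 3 CCG fall in that part before the gene start. Of the last 176 bases of all 35116 start windows, 74.8% hold CCG at least once on the gene's strand. The LINC00173 stretch of 33 bases holds none, and 41.0% of start windows hold CCG in their last 33 bases. These matches describe letters only. YWHAH-AS1 had a fold of 545 in the control list and 591 in the NAT10-si list at an expression of 0.153 FPKM on average over the 4 libraries.

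Coordinates are on GRCh38, as matches of peak edges to gene edges show. The lower coordinate of 686 control peaks was the lower coordinate of a RefSeq GRCh38.p14 gene. For 596 the upper coordinates matched. Strand was not used in these matches, so a matched edge can be the 5′ or the 3′ end of a gene. Of the 6281 shared peaks, 5887 belonged to a gene with a RefSeq entry and 5796 overlapped it. Among those, 5378 (92.8%) were in protein-coding genes, 286 in lncRNA genes, and 131 in pseudogenes of either kind. Their places were strongly skewed to the end of the gene: 76.0% had their centre in the last 10% of the gene from 5′ to 3′, and 1.97% in the first 10%. The other single-block control peaks had 71.5% in the last 10% and 1.74% in the first 10%.

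**Figure D1:**
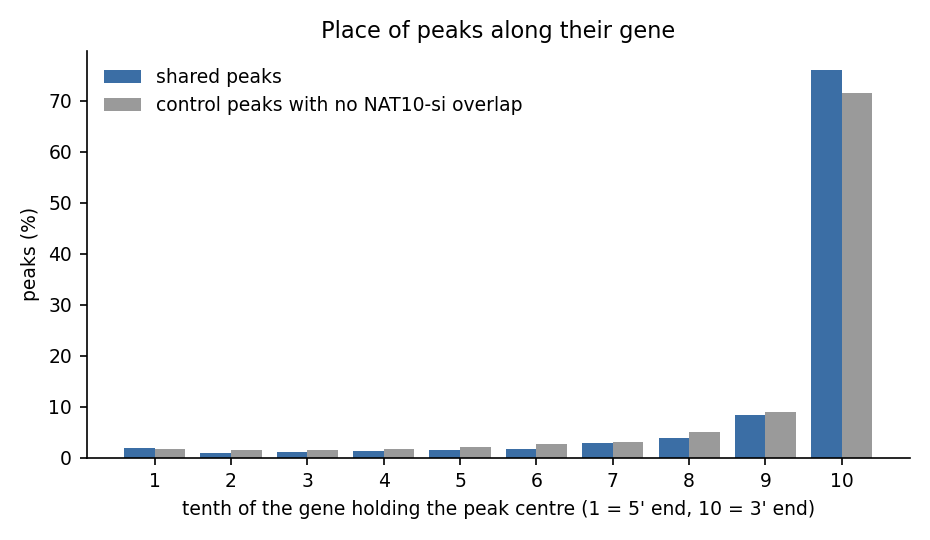
Share of peaks (y axis, %) by position of the peak centre in 10 equal steps along the gene (x axis, 5′ to 3′), for 5796 shared single-block peaks and 2124 other single-block control peaks that overlap their RefSeq gene. The last step holds 76.0% of the shared peaks and 71.5% of the others.

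Over all peaks that overlap their RefSeq gene, the shared peaks also lay closer to its end. The median distance from the peak's 3′ edge to the annotated gene end was 134 bases for shared peaks and 625 bases for the other single-block control peaks. The 3′ edge fell exactly on the gene end in 906 shared peaks (15.6%) and in 172 others (8.1%), and within 300 bases of it in 58.4% and 40.3%. Near the gene start the classes were close, with 1.76% of shared peaks and 2.17% of others within 300 bases of it. The tables give gene spans and not exon boundaries, so a position in the last exon or in a UTR was not assigned. No test was made between the classes, because the rule split them by the same peak calls.

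Chromosome 4 had the lowest share of single-block control peaks that were shared among chromosomes 1 to 22 and X, at 59.8%, and chromosomes 11 and 17 the highest, at 76.9% each. On the mitochondrial genome all 12 of 12 single-block control peaks were shared. They lay in 10 of the 13 protein genes of that genome: MT-ND1, MT-ND2, MT-CO1, MT-CO2, MT-ATP6, MT-CO3, MT-ND3, MT-ND4, MT-CYB and MT-ND6. These genes encode subunits of the respiratory chain and of ATP synthase. Both MT-CO1 and MT-ND4 held 2 peaks. The peak of MT-CO2 kept the same width, 684 bases in both arms. That of MT-CYB was 615 bases in control and 586 bases in NAT10-si, the 1 mitochondrial peak that was narrower. A single NAT10-si peak of 1318 bases covered both MT-ND4 peaks, which were 120 and 390 bases wide in control. These mitochondrial transcripts were abundant, at 784 to 10100 FPKM on average.

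Most genes had 1 shared peak, 4577 of 5366, and 789 had 2 or more. VMP1, an endoplasmic reticulum protein gene of autophagy, had the most, 6 rows within chr17:59837931-59842255, of which 2 give the same place. ZNF207, a gene for a zinc finger protein of the mitotic spindle, had 5 within chr17:32369741-32381886. HSPA8, the constitutive HSP70 chaperone, TPM1, a tropomyosin, and PIAS2, a SUMO ligase, had 4 each, the first by gene identifier among the genes with that number. Neighbouring peaks of these genes often met the same NAT10-si peak: in ZNF207 a NAT10-si peak of 1260 bases covered control peaks of 121 and 211 bases. In all, 613 shared peaks had a NAT10-si partner that was also the partner of another shared peak. The protocadherin gamma cluster, whose genes share 3′ exons, gave 22 rows at 3 places, each meeting 22 NAT10-si rows. Such rows are not separate measurements, and the 6281 rows stood at 6256 distinct places.

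Strand is a second limit of identity. Of the shared peaks, 699 (11.1%) overlapped a control peak on the other strand, and 172 of the 722 such pairs had the same fold on both strands. Those peaks cannot be assigned to 1 strand from these lists. Among the genes named here they are the peaks of MAT2A, CCND1, TUBA1B, DDIT3, LENG8 and LENG9, 1 of the 4 TPM1 peaks, and those of AKT1, a kinase gene of growth signalling, and BCL9L, a Wnt co-activator gene. The AKT1 peak at chr14:104769349-104769618, at the 3′ end of the gene, was 270 bases wide in both arms with a fold of 147 in the control list and 52.2 in the NAT10-si list. The BCL9L peak at chr11:118896125-118896455 was 331 bases wide in control and 451 bases in NAT10-si, with folds of 84.3 and 14.3. The study's other named genes, AHNAK and SOX4, had no shared single-block peak.

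NAT10-si peaks were more often wider than narrower. For each shared peak the NAT10-si peak with the longest overlap was taken as its partner. The median width was 210 bases in control (quartiles 180 and 271) and 299 bases in NAT10-si (quartiles 210 and 447). The partner was wider for 4169 peaks (66.4%), narrower for 1088 (17.3%) and of equal width for 1024 (16.3%), and the median log2 ratio of widths was 0.322. Start and end were both identical for 851 peaks (13.5%), and 4408 (70.2%) lay wholly inside a NAT10-si exon block.

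**Figure D2:**
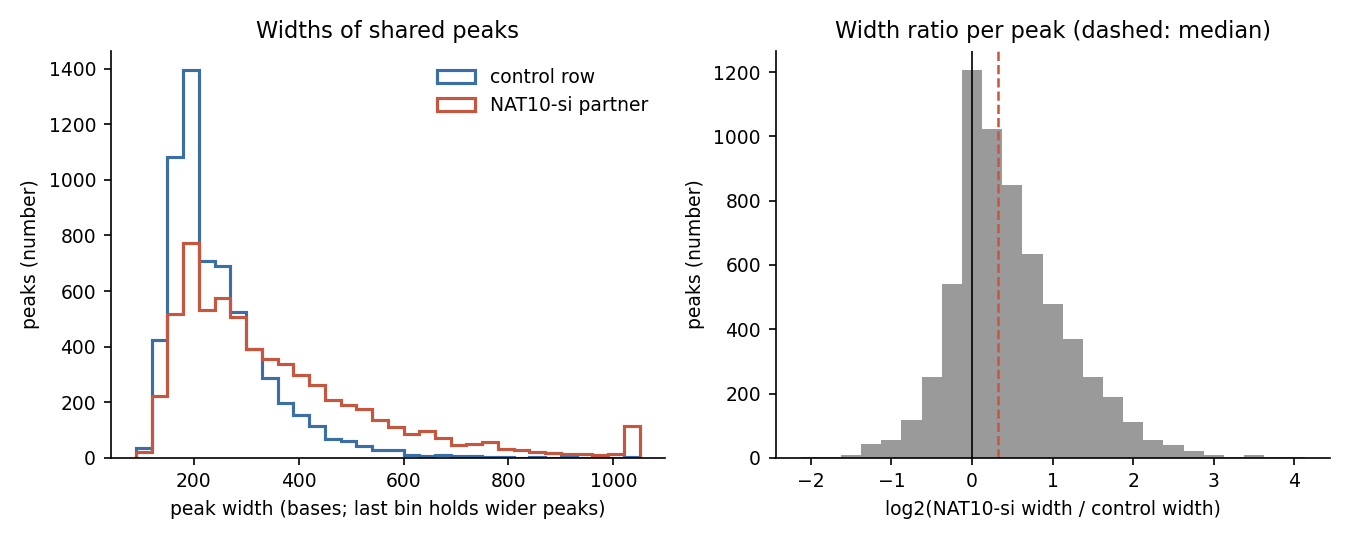
Left, number of shared peaks (y axis) by width in bases (x axis) for control peaks and their NAT10-si partners, with wider peaks gathered in the last bin; right, number of peaks by log2 ratio of NAT10-si to control width. Median widths are 210 and 299 bases, and the dashed line marks the median log2 ratio of 0.322.

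Edges coincided more often on the 3′ side. The 3′ edge was at the same base in both arms for 3177 peaks (50.6%) and the 5′ edge for 1529 (24.3%). Among shared peaks that overlap their RefSeq gene, the control 3′ edge fell exactly on the gene end for 906. The control 5′ edge fell on the gene start for 2. The part of annotated gene ends in the shared edges was not tested. Partners were at least 2 times as wide for 1246 peaks (19.8%) and no more than 50% as wide for 79 (1.26%). Widths followed a grid: 88.9% of the control widths were within 1 base of a multiple of 30. Of the partners, 613 (9.76%) had more than 1 block; among the 5668 partners with 1 block the median width was 271 bases. The rule favours wide partners, which overlap more readily. The 2 lists as a whole also differed, with median widths of 181 bases in control and 210 bases in NAT10-si, and no width has a replicate.

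At the wide extreme, among peaks whose false discovery rate was at most 0.05 in both lists, stood peaks of AHSA2P, OGT, VMP1 and HNRNPDL. AHSA2P, a transcribed pseudogene, had 120 bases in control and 2037 bases over 3 blocks in NAT10-si. OGT, which encodes the O-GlcNAc transferase, had 181 bases in control and 2992 bases over 4 blocks in NAT10-si. HNRNPDL, an RNA-binding protein gene, had 181 bases in control and 2544 bases over 7 blocks in NAT10-si. VMP1 contributed 2 rows at 1 place, 121 bases in control and 1913 bases in NAT10-si. In each of these the control peak was one of the narrow windows and the partner spanned several exons. The rule allows this in that direction only, because it limits the control peak, and not the partner, to 1 block.

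At the narrow extreme, under the same limit on the false discovery rate, stood MSN, THAP11, SLC7A5, MTHFD2 and CCDC92. MSN, which encodes moesin, a linker of actin to the membrane, had 538 bases in control and 180 bases in NAT10-si. THAP11, a zinc finger protein gene, had 358 and 120 bases, and its control peak ended at the gene end. SLC7A5, an amino acid transporter gene, had 389 bases in control and 150 bases in NAT10-si. MTHFD2, a mitochondrial folate enzyme gene, and CCDC92 had 539 and 210 bases each. All 5 partners had a single block.

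The fold is the authors' own enrichment value, given per peak, and a fold in one list was not read against a fold in the other as a change. Within the control list the shared peaks had a median fold of 26.1 (quartiles 12 and 60.2) and the other single-block peaks 24.1 (quartiles 9.03 and 36.1). Repeated values were common: 380 shared peaks had a fold of exactly 24.1, 252 of 36.1 and 250 of 12, which are steps of a common unit. The same held for their partners, where 318 had a fold of 14, 298 of 21.1 and 212 of 28.1. In the control list a false discovery rate of at most 0.05 was met by 5555 shared peaks (88.4%) and by 1250 of the others (52.5%), and 5285 shared peaks (84.1%) met it in both lists. The lists thus also hold peaks above that rate. Among peaks named here these include control peaks of BRCA1, ITGA5, RHOQ, DNAJC10, H2BC9 and PIAS2, and the NAT10-si partner of the MCM10 peak.

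Ranked by the lower of the 2 folds, which only serves to pick peaks with a high value in both lists, the leading shared peaks with a gene symbol included those of ST3GAL1-DT, YWHAH-AS1, LENG9, ZNF169, PCF11, MCCC2, LENG8, EOLA1-DT and ZFYVE28. ZFYVE28, an endosomal zinc finger protein gene, had a fold of 1200 in the control list and 401 in the NAT10-si list at chr4:2330217-2330427, 60620 bases from the gene's 3′ end. PCF11, which encodes a cleavage and termination factor, had 491 and 509 at chr11:83158397-83158816, 28635 bases before the 3′ end. MCCC2, a leucine catabolism enzyme gene, had 467 and 548 at chr5:71658107-71658704. LENG8 and LENG9 overlapped each other on opposite strands, and the LENG9 partner had the fold of 11700, the highest in the NAT10-si list. High folds also stood in genes of low expression: ZNF169, LENG9, ZFYVE28, EOLA1-DT and YWHAH-AS1 averaged 0.153 to 1.4 FPKM.

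At the edge of the rule, 53 shared peaks overlapped their partner by under 30 bases. Peaks of BTF3L4, RHOQ, DNAJC10 and BOK, among others, shared 1 base only, with control widths of 121 to 210 bases. Just outside, 36 control peaks lay within 30 bases of a NAT10-si block, the nearest being RRP36 at 7 bases and ZNRD2 at 17 bases, then TSPAN17, DHRS7 and FAM104B at 28 bases. Within 300 bases lay 364 of the 2381 unshared peaks. The median distance of an unshared peak to the nearest NAT10-si block on its strand was 11157 bases. This distance is along the genome and counts introns, so along the transcript a peak can be nearer.

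An earlier acRIP round of the same line gave shorter lists, of 685 control and 666 NAT10-si peaks. Of its control peaks 32 overlapped a shared peak, and of its NAT10-si peaks 30. Of the 2381 other single-block control peaks, 4 overlapped a control peak of that round and 8 a NAT10-si peak. Of the 6281 shared peaks only 30 overlapped a control peak of that round and 30 a NAT10-si peak, and 2 overlapped both. These were MAT2A, which encodes the S-adenosylmethionine synthetase, and MT-ND2. The MAT2A peak at chr2:85544413-85545280 was 868 bases wide in control and 2513 bases over 3 blocks in NAT10-si, and it overlapped a control peak on the other strand. The MT-ND2 peak was 477 bases wide in control and 893 bases in NAT10-si.

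RNA-seq gave a measure that the rule did not use. Of the 5366 genes with a shared peak, 4905 averaged at least 1 FPKM and were tested with all others, and 461 were not, 58 of them listed at 0 in every library. Of the 4905, 1623 (33.1%) were higher in NAT10-si and 1473 (30.03%) lower by limma at an adjusted p under 0.05. Among all 14004 genes tested 27.9% were higher and 27.9% lower, so both shares stood near that background, which includes these genes. Of 4165 tested genes with no peak in either list of the round, 22.6% were higher and 25.7% lower. Their median level was 3.24 FPKM, beside 10.1 FPKM for genes with a shared peak, and the difference in shares was not tested. The median log2 change was 0.01 for genes with a shared peak and 0.01 for all genes. In bulk RNA, fewer cells of a type and less RNA per cell cannot be told apart.

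**Figure D3:**
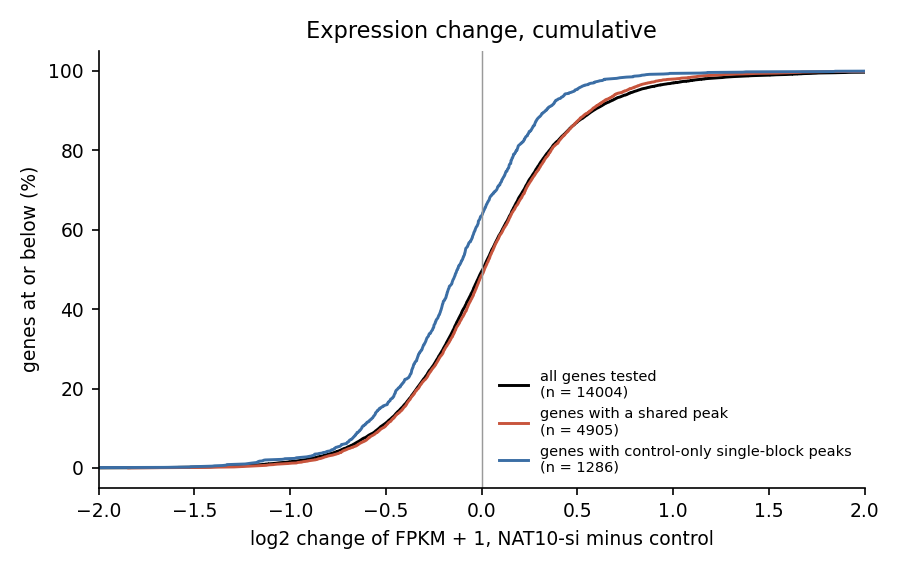
Cumulative share of genes (y axis, %) by log2 change of FPKM + 1, NAT10-si minus control (x axis), for all 14004 genes tested, 4905 genes with a shared single-block peak and 1286 genes whose single-block control peaks were all unshared. The median is 0.01 for genes with a shared peak and for all genes, and -0.13 for unshared genes.

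Genes whose single-block control peaks were all unshared showed another balance: of 1286 tested, 210 (16.3%) were higher and 502 (39.0%) lower, with a median of -0.13. Their level was lower too, with a median of 3.59 FPKM over all 1709 such genes, beside 10.1 FPKM for genes with a shared peak (quartiles 4.22 and 22.9). This difference was not tested.

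The share of single-block control peaks that were shared rose with the gene's level. It was 51.5% under 1 FPKM, 68.7% from 3 to 10 FPKM, 79.7% from 10 to 30 FPKM and 96.0% from 100 FPKM on. By expression call it was 85.2% in genes that were higher in NAT10-si, 72.3% in genes not called and 69.1% in genes that were lower. The order of higher over lower held from 1 to 3 FPKM (78.7% and 42.2%) up to 30 to 100 FPKM (93.8% and 85.4%), and from 100 FPKM on the shares were 95.1% and 96.0%.

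The width gain was larger in genes that were higher in NAT10-si than in genes that were lower. The median log2 width ratio was 0.583 in genes higher in NAT10-si, 0.32 in genes not called and 0.174 in genes that were lower. The median control width hardly differed between these classes (211, 210 and 211 bases), whereas the median NAT10-si width was 361, 271 and 270 bases. Of the peaks in genes that were higher, 77.8% had a wider partner, and of those in genes that were lower, 56.5%. At every level from 1 FPKM on, the ratio was larger in genes that were higher than in genes that were lower. From 10 to 30 FPKM, for example, it was 0.583 and 0.193. In genes that were lower it was 0 from 1 to 3 FPKM, with a median width of 181 bases in both arms. From 3 to 10 FPKM it was 0.0624 in genes that were lower. Across 4905 genes, taking the first-listed peak of each, Spearman's rho of width ratio and expression change was 0.259; genes share the same 4 RNA-seq libraries and 2 peak lists, and no p is given. The part of transcript level in the peak calls was not tested.

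**Figure D4:**
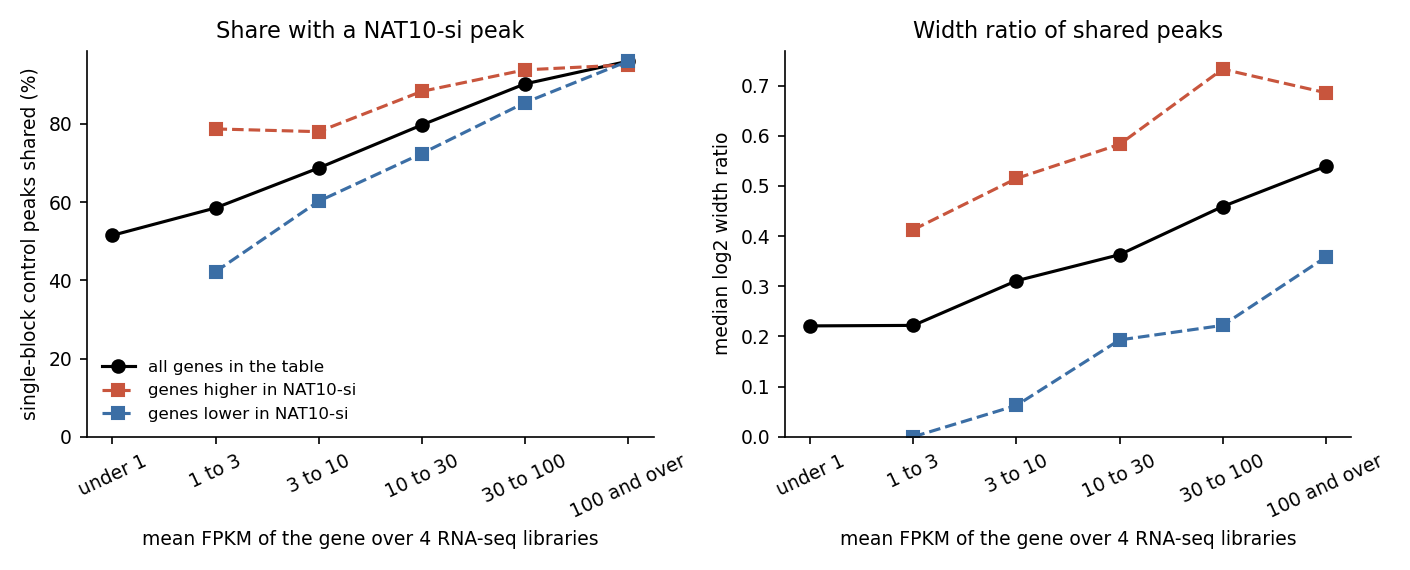
Left, share of single-block control peaks with a NAT10-si overlap (y axis, %) by mean FPKM of the gene (x axis, classes of unequal width); right, median log2 ratio of NAT10-si to control width of the shared peaks. The left panel rises from 51.5% under 1 FPKM to 96.0% from 100 FPKM on, and genes called higher lie above genes called lower in every class except the last on the left.

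Extremes were taken among genes with a shared peak that averaged 3 FPKM or more and whose arms were separate. The 8 largest increases were in DDIT3, IFI6, NR1D1, DUSP5, TXNIP, DUSP1, ZFP36 and JUNB. DDIT3, the gene of the stress-induced factor CHOP, had 16 and 16.9 FPKM in control and 108 and 116 FPKM in NAT10-si, a log2 change of 2.70 (standard error 0.0553, adjusted p = 5.6e-05 by limma). Its peak at the gene's 3′ end was 295 bases wide in control and 560 bases in NAT10-si, and it overlapped a peak on the other strand. IFI6, an interferon-induced gene, had 114 and 118 FPKM in control and 576 and 591 FPKM in NAT10-si, and its peak was 359 bases in control and 656 bases over 4 blocks in NAT10-si. DUSP5 and DUSP1, phosphatases of MAP kinases, rose by 2.27 and 2.18 on the log2 scale. The DUSP5 peak was 417 bases in control and 773 bases in NAT10-si, and the DUSP1 peak 357 and 654 bases. TXNIP, an inhibitor of thioredoxin, rose by 2.23, ZFP36, an mRNA decay factor, by 2.16, and JUNB, an AP-1 subunit, by 2.16. NR1D1, a circadian repressor, rose from 6.66 and 6.36 FPKM to 35.6 and 35.4 FPKM, and its peak was 179 bases in control and 418 bases in NAT10-si. In all 8 genes the NAT10-si peak was the wider one, from 299 and 329 bases in JUNB to 151 and 421 bases in ZFP36.

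By the same rule the 8 largest decreases included 3 replication genes. TFDP1, the dimer partner of E2F, had 53.3 and 54.6 FPKM in control and 14.3 and 14.3 FPKM in NAT10-si, a log2 change of -1.84 (standard error 0.0417, adjusted p = 5.9e-05 by limma). Its peak was 330 bases wide in control and 151 bases in NAT10-si. MCM10 and MCM4, of the replication helicase machinery, changed by -1.61 and -1.44, and FEN1, the flap endonuclease, by -1.51. The MCM10 peak was 241 bases in control and 151 bases in NAT10-si, the MCM4 peak 241 and 301 bases, and the FEN1 peak 180 and 239 bases. PPP1R10, a phosphatase regulator, had 15.4 and 13.9 FPKM in control and 3.48 and 3.31 FPKM in NAT10-si, and its peak was 301 and 151 bases wide. PRKAR2A, a regulatory subunit of protein kinase A, changed by -1.60 with a peak of 210 bases in both arms. USP1, a deubiquitinase of DNA repair, changed by -1.42 with a peak of 209 and 180 bases. TYMSOS, an RNA antisense to TYMS, changed by -1.69 with a peak of 120 and 179 bases; its reads may not be separable from those of TYMS. Of these 8 peaks, 4 were narrower, 1 equal and 3 wider in NAT10-si.

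**Figure D5:**
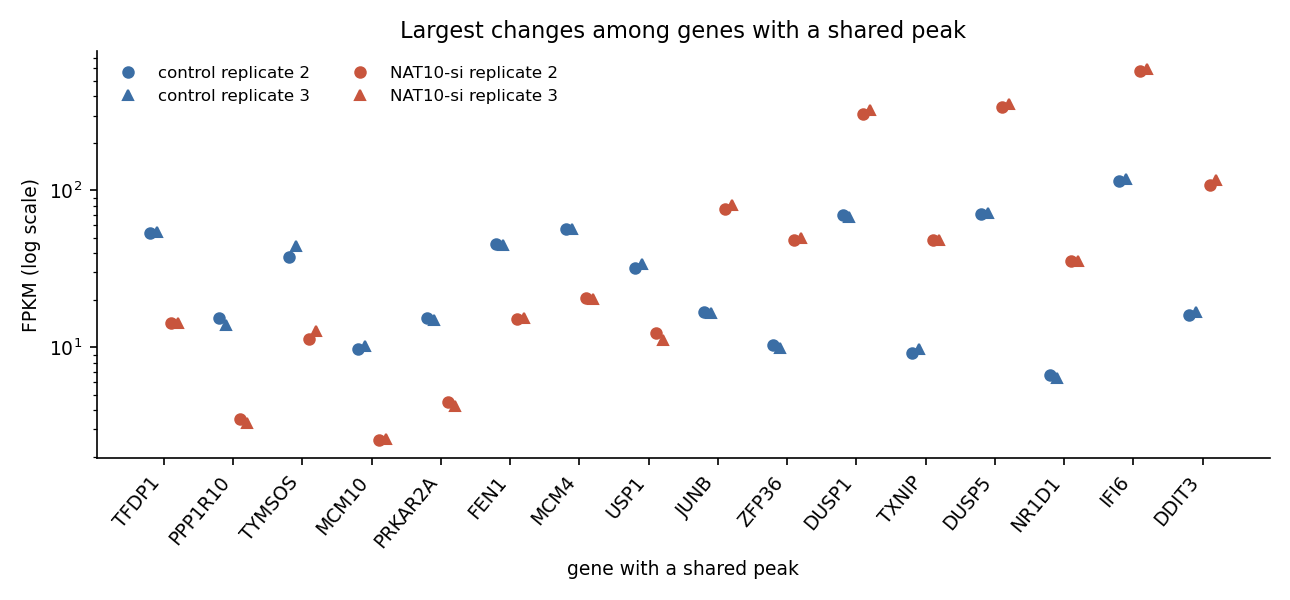
FPKM (y axis, log scale) of the 8 genes with the largest decreases and the 8 with the largest increases among genes with a shared peak and a mean of at least 3 FPKM (x axis), 1 point per library. In each gene the 2 control and the 2 NAT10-si libraries do not overlap, as the choice of genes required; DDIT3 has 16 and 16.9 FPKM in control and 108 and 116 FPKM in NAT10-si.

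By function, cell cycle genes with a shared peak were uniformly lower in NAT10-si. All 22 mitosis genes with a shared peak were lower, as were all 37 mitosis genes tested. Of them, CENPF, a kinetochore protein gene, changed by -1.24, NCAPH, a condensin subunit gene, by -1.32, and PLK1, a mitotic kinase gene, by -1.12. All 15 replication genes with a shared peak were lower, beside 40 of 44 tested. MCM7, of the replicative helicase, had 112 and 109 FPKM in control and 45.5 and 46.5 FPKM in NAT10-si. In this list the median peak width was 240.5 bases in control and 239.5 bases in NAT10-si, in contrast to the median gain over all shared peaks. A further 11 tested replication genes had only unshared single-block control peaks.

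DNA repair genes, which the series title concerns, had 33 with a shared peak; 25 were lower, 3 higher and 5 not called, beside 51 lower and 5 higher of 75 tested. BRCA1, of homologous recombination, had 7.9 and 7.85 FPKM in control and 3.34 and 3.28 FPKM in NAT10-si, and its peak was 181 bases in control and 270 bases in NAT10-si. DNA2, a nuclease of end resection, changed by -1.15 with a peak of 150 bases in both arms. XRCC6, the Ku70 subunit of end joining, had 151 and 157 FPKM in control and 88.7 and 91.9 FPKM in NAT10-si, with a peak of 300 bases in both arms.

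Genes of ribosome production and translation moved apart from the ribosomal proteins. Of 20 ribosome biogenesis genes with a shared peak 18 were lower, 1 higher and 1 not called, beside 35 lower of 40 tested. NOP56, of the box C/D small nucleolar particle, had 51.4 and 50.7 FPKM in control and 23.0 and 23.0 FPKM in NAT10-si, and its peak was 301 bases in both arms. NCL, nucleolin, and DDX21, a nucleolar helicase, changed by -0.96 and -0.99. Among 24 translation factor genes with a shared peak 16 were lower, including EIF4G2 (-0.96) and EIF3B (-0.74), and 3 were higher, beside 24 lower and 4 higher of 38 tested. EIF4A1 was one of those 3, but at 1.13 and 1.17 FPKM in control its level is uncertain, since a readthrough gene overlaps it and the counting may have dropped shared reads. Of 62 ribosomal protein genes tested with a shared peak, 31 were higher, 6 lower and 25 not called, beside 41 higher and 7 lower of 79 tested. RPS18 had 484 and 503 FPKM in control and 643 and 683 FPKM in NAT10-si, with a peak of 742 bases in both arms. RPLP2, of the ribosomal stalk, changed by 0.36, and RPL17, which also overlaps a readthrough gene, by 1.09. Ribosomal protein genes have many near-identical pseudogenes, among which reads can be split.

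RNA modification genes with a shared peak numbered 15, of which 10 were lower and 1 higher, beside 16 and 2 of 34 tested. They included ALYREF (-0.81), an export factor and reader of 5-methylcytosine, DKC1 (-0.69), the pseudouridine synthase, and NSUN2 (-0.54), a cytosine methyltransferase. The NSUN2 peak was 181 bases in control and 510 bases in NAT10-si although its expression fell. Among 10 mitochondrially encoded protein genes with a shared peak 8 were lower and 1 higher, beside 10 and 1 of 13 tested. MT-CYB had 4260 and 4280 FPKM in control and 2650 and 2670 FPKM in NAT10-si, MT-CO2 changed by -0.56 and MT-CO3 by -0.45. These 3 calls were lost in a fit that kept every gene regardless of its level, where limma gave adjusted p = 0.0543 for MT-CYB, 0.186 for MT-CO2 and 0.252 for MT-CO3.

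Stress response genes went up, as did the replication-dependent histones. Of 19 with a shared peak 16 were higher and 1 lower, beside 21 and 4 of 30 tested, and their median peak width was 241 bases in control and 506 bases in NAT10-si. HSPA5, the endoplasmic reticulum HSP70, had 249 and 255 FPKM in control and 736 and 745 FPKM in NAT10-si, and its peak was 419 bases in control and 1045 bases in NAT10-si. PPP1R15A, which reverses the integrated stress response, changed by 1.91, with a peak of 179 and 506 bases. Of 9 heat shock and chaperonin genes with a shared peak 7 were lower and 1 higher, beside 13 and 6 of 20 tested, with HSP90AA1 at -0.49, CCT3 at -0.53 and TCP1 at -0.46. Of 25 replication-dependent histone genes tested 23 were higher, and the 2 with a shared peak, H2AC6 and H2BC9, were among them. H2AC6 changed by 1.76 and H2BC9 by 1.61, and 1 NAT10-si peak of 837 bases covered both H2BC9 peaks of 151 and 120 bases. Histone genes have near-identical copies, among which reads can be split.

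The remaining lists were mixed. Of 16 glycolysis and hypoxia genes with a shared peak 8 were lower and 4 higher, beside 13 and 6 of 25 tested. PGAM1, phosphoglycerate mutase, had 240 and 241 FPKM in control and 104 and 112 FPKM in NAT10-si, with a peak of 419 bases in both arms, and LDHA and SLC2A1 changed by -0.79 and -0.66. Of 28 cytoskeleton and adhesion genes 10 were lower, 6 higher and 12 not called, beside 13 lower and 12 higher of 41 tested, with TUBA1B (-0.86), KRT18 (-0.68) and the integrin gene ITGA5 (1.13) leading. The ITGA5 peak was 120 bases in control, at a false discovery rate above 0.05 (log10 value -1.23), and 780 bases in NAT10-si. Of 7 Wnt and bladder cancer genes with a shared peak 4 were lower and 2 higher, beside 7 and 4 of 14 tested. CCND1, cyclin D1, had 142 and 143 FPKM in control and 74.5 and 72.8 FPKM in NAT10-si, with a peak of 301 bases in both arms that overlapped a peak on the other strand. MYC changed by 0.72. AKT1 changed by -0.22 (adjusted p = 0.022 by limma), and that call was lost when control replicate 2 (adjusted p = 0.107) or NAT10-si replicate 2 (0.0931) was left out, and also when genes of every level were kept in the fit (0.0637). BCL9L had 19.6 and 17.8 FPKM in control and 17.2 and 16.2 FPKM in NAT10-si, which did not pass the test (adjusted p = 0.097 by limma); on recovered reads limma-voom gave an adjusted p of 0.0473.

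Of the 5 genes with most shared peaks, picked by gene identifier where numbers tied, 3 were higher in NAT10-si. Among all genes with a shared peak 33.1% were higher, and among all genes tested 27.9%. VMP1 changed by 0.40, TPM1 by 0.64 and PIAS2 by 0.44, each past the threshold, and none was called lower. HSPA8 had 321 and 327 FPKM in control and 330 and 322 FPKM in NAT10-si, and ZNF207 had 11.9 and 12.4 FPKM in control and 11.7 and 11.3 FPKM in NAT10-si; neither passed the test (adjusted p = 0.86 and 0.26 by limma). ZNF207 still had a wider NAT10-si partner for 4 of its 5 peaks.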

How the data were processed

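UM-UC-3 acRIP and RNA-seq data were used. HTSeq 0.6.1, HISAT2 2.1.0 and bcl2fastq 2.19.1 are named in the submitters' processing notes, with hg19 as the build, although peak edges match GRCh38. No source used here names the peak caller. Per the file headers, each deposited peak list gives a fold enrichment (a ratio), a score that holds the p-value, and log10 p-values and false discovery rates. The authors deposited expression as FPKM for 58302 genes. Starts are printed counted from 1. Log2(FPKM + 1) of genes with a mean of at least 1 was fitted with limma 3.58.1 (moderated test with a mean trend), 2 libraries per arm, Benjamini-Hochberg adjusted over all genes tested; a gene was called at an adjusted p under 0.05. The fit was tested on simulated data. FPKM steps gave whole reads for 27566 of 27571 genes (relative tolerance 1e-08), which set the depth. The depth of the acRIP libraries is unknown.

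Members and gene lists were chosen with earlier results of these data known. The genes named are NAT10, 4 genes of the study, and the extremes of fold, width ratio, overlap, peak number and expression change; up to 3 genes per list by expression p were added, and genes without a symbol were left out. A few genes that the rule names are not reported here. Peaks in the mitochondrial genome and those with a miRNA or a lncRNA start were chosen after their values were seen. Lists covered DNA repair, RNA modification, Wnt and bladder cancer genes, cytoskeleton, glycolysis, heat shock, mitochondrial proteins, mitosis, replication, histones, ribosome biogenesis, stress response, translation factors and ribosomal proteins. The search for miRNA hairpins left out chromosome 8. T24 samples were not analysed here.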

Additional observations from a re-analysis of the deposited data

How the results depend on the processing

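The number of shared single-block peaks stayed between 4692 (overlap of at least 50% of both peaks) and 6286 (overlap with the whole span of the NAT10-si peak) under the 8 alternatives tried. The median log2 width ratio stayed above 0: it was 0.214 with an overlap of at least 50% of both peaks, 0.263 with single-block partners only, 0.37 for peaks whose false discovery rate was at most 0.05 in both lists and 0.456 with the NAT10-si list shortened by p to the number of control peaks. Leaving out peaks that overlap a control peak on the other strand gave 5582 peaks and a ratio of 0.322; that alternative, the single row per place and limma-voom on the recovered reads (which replaced a planned count model that does not apply to FPKM) were chosen after seeing the data. Among genes with a shared peak, 1623 higher and 1473 lower calls became 1906 and 1548 with limma-voom, 1256 and 1176 with no filter on low values, and 1514 and 1381 with the replicate number as a block. Same-numbered libraries shared only a number: their deviations had a correlation of 0.0125, and the replicate block gave 3664 higher and 3630 lower calls over all genes. Leaving out 1 library at a time gave 1215 to 1427 higher and 1123 to 1311 lower genes with a shared peak; the lone library left in an arm is assumed to vary like the others. With 2 libraries per arm and 1 pull-down per peak list, the precision of every peak value is unknown.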
